A study of Homo sapiens with 34 samples.

Results

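Cytoplasmic dynein 1 is the motor that carries cargo towards the minus end of microtubules, and 9 genes of its subunits were followed through CCND3 knockdown and palbociclib treatment of B-cell acute lymphoblastic leukemia (B-ALL) cells. The genes were the heavy chain *DYNC1H1*, the intermediate chain *DYNC1I2*, the light intermediate chains *DYNC1LI1* and *DYNC1LI2*, and the light chains *DYNLRB1*, *DYNLL1*, *DYNLL2*, *DYNLT1* and *DYNLT3*. They were taken by symbol, and all 9 were among the 13307 genes listed in every one of the 6 expression tables. *DYNLRB1* was chosen on its values in these comparisons, because its level was at least 1.5-fold higher after CCND3 knockdown in each line and in no line after palbociclib, so its levels and ratios are given as a description.

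Polyadenylated RNA was sequenced in 34 samples of 3 B-ALL lines. NALM-6 carries ETV6-PDGFRB, RS4;11 carries MLL-AF4 and BV-173 carries BCR-ABL, and each is 1 established line. Cells of each line were transduced with a lentiviral vector for 1 shRNA against CCND3 (shCCND3) or a scrambled shRNA, and the cells positive for its red fluorescent protein were sorted on day 4. Other cells of each line received 1 µM palbociclib, an inhibitor of CDK4 and CDK6, or its solvent DMSO for 3 days. The 12 groups held 3 samples each, except NALM-6 shCCND3 and BV-173 DMSO with 2 samples. The tables give 1 pooled level per group, so no spread between samples can be attached to a level, no test was run, and the only error given is the SD over the 3 lines.

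Dynein walks as a dimer of heavy chains, which hold the ATPase motor. The intermediate chains tie the heavy chains to the light chains and to dynactin, the cofactor that most cargo transport requires, and the light intermediate chains bind the adaptors that recruit cargo. The roadblock (*DYNLRB1*), LC8 (*DYNLL1*, *DYNLL2*) and Tctex (*DYNLT1*, *DYNLT3*) light chains dock on the intermediate chains, and the LC8 chains also bind many proteins outside the motor. In dividing cells the motor acts at the nuclear envelope, at kinetochores and at spindle poles, and in interphase it moves endosomes, lysosomes and the Golgi.

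The stretches before the annotated starts of *DYNLRB1*, the gene with the widest differences between groups, and of *DYNLT3*, the gene with the widest differences between lines, are shown with every CpG in capitals. Both are 250 bases, 5′ to 3′ on the gene's strand, from RefSeq on GRCh38.p14, where 8 of the 9 genes had such an entry (all but *DYNLL2*). *DYNLRB1* lies at chr20:34515602-34540958 and its window at chr20:34515352-34515601 on the plus strand. *DYNLT3* lies at chrX:37838836-37847571 and its window at chrX:37847572-37847821 on the minus strand.
DYNLRB1: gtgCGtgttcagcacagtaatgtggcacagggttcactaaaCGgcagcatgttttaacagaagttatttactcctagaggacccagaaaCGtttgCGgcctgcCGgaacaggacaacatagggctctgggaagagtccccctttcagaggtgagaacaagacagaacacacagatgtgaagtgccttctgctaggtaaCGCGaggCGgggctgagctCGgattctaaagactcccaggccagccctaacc
DYNLT3: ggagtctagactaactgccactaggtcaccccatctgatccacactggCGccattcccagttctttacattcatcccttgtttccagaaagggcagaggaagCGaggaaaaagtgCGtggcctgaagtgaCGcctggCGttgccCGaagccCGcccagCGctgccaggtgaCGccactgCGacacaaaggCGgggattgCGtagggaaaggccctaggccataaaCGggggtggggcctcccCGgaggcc
The *DYNLRB1* window precedes the outermost start of a gene with 14 annotated transcripts, and other starts of the gene were not examined. It held 9 CpGs and the *DYNLT3* window held 14, against a median of 11 over 35116 windows of the same length. At the other end, the windows of *DYNC1LI2* and *DYNLL1* held 40 and 39. Among 6 short motifs searched on both strands, GGGCGG (the GC box) occurred once before *DYNLT3* and not before *DYNLRB1*, against at least once in 42.6% of all windows. None of CCAAT (32% of all windows), TATAAA (10.7%), CACGTG (6.34%), TTTGAA (13.3%) and TTTGGCG (1.59%) occurred in either stretch, and none of the 6 motifs contains another. A match of letters is a description and not a binding site.

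CCND3 itself, the target of the shRNA, was at 24.2% (NALM-6), 20.7% (RS4;11) and 31.1% (BV-173) of the scrambled level. The B-lineage markers used for the check were all listed in each comparison (10 of 10), with a control level of 100 or more for each. Of the 6 T-cell markers, 2 to 4 were listed and of the 5 erythroid markers 1 to 3, each at a control level under 10. Of the 6 myeloid markers 5 or 6 were listed, with summed control levels of 92.8 to 972. The levels are in the units of the tables, where the median gene stood between 325 and 374. The proliferation markers were lower with both treatments. Of these, 12 of 12, 12 of 12 and 4 of 12 were at least 1.5-fold lower after knockdown in the lines in that order, and 12 of 12 in each after palbociclib. Their summed level went from 71478 to 29011 (NALM-6), 58864 to 17506 (RS4;11) and 56070 to 37343 (BV-173) with knockdown. Their part in the values below was not tested. In whole-population RNA such as this, fewer cells of a type and less RNA per cell cannot be told apart.

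*DYNLRB1*, the roadblock light chain, was at 480 with scrambled shRNA and 1531 with shCCND3 in NALM-6. In RS4;11 it was at 634 and 1476, and in BV-173 at 800 and 1808. The shCCND3 level was the higher of the pair in each line, which is how the gene was chosen. In NALM-6 the log2 ratio of shCCND3 over scrambled was 1.67, followed by 1.22 for RS4;11 and 1.18 for BV-173, a mean of 1.36 ± 0.28 (SD, n = 3 lines). Among all genes listed, 54, 290 and 35 had a higher ratio in these lines. These ranks come from the ratio on which the gene was chosen, so they are a description only.

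In NALM-6 the same gene was at 1964 with DMSO and 1791 with palbociclib, in RS4;11 at 1757 and 1941, and in BV-173 at 1390 and 1596. The palbociclib level was lower than the DMSO level in 1 line and higher in the other two. Log2 ratios of palbociclib over DMSO were −0.13, 0.14 and 0.20, with a mean of 0.07 ± 0.18 (SD, n = 3 lines), so the mean was smaller than the spread between lines. The knockdown ratio exceeded the palbociclib ratio in each line, by 1.29 ± 0.45 on the log2 scale (SD, n = 3 lines). The sign of that difference follows from how the gene was chosen.

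**Figure D1:**
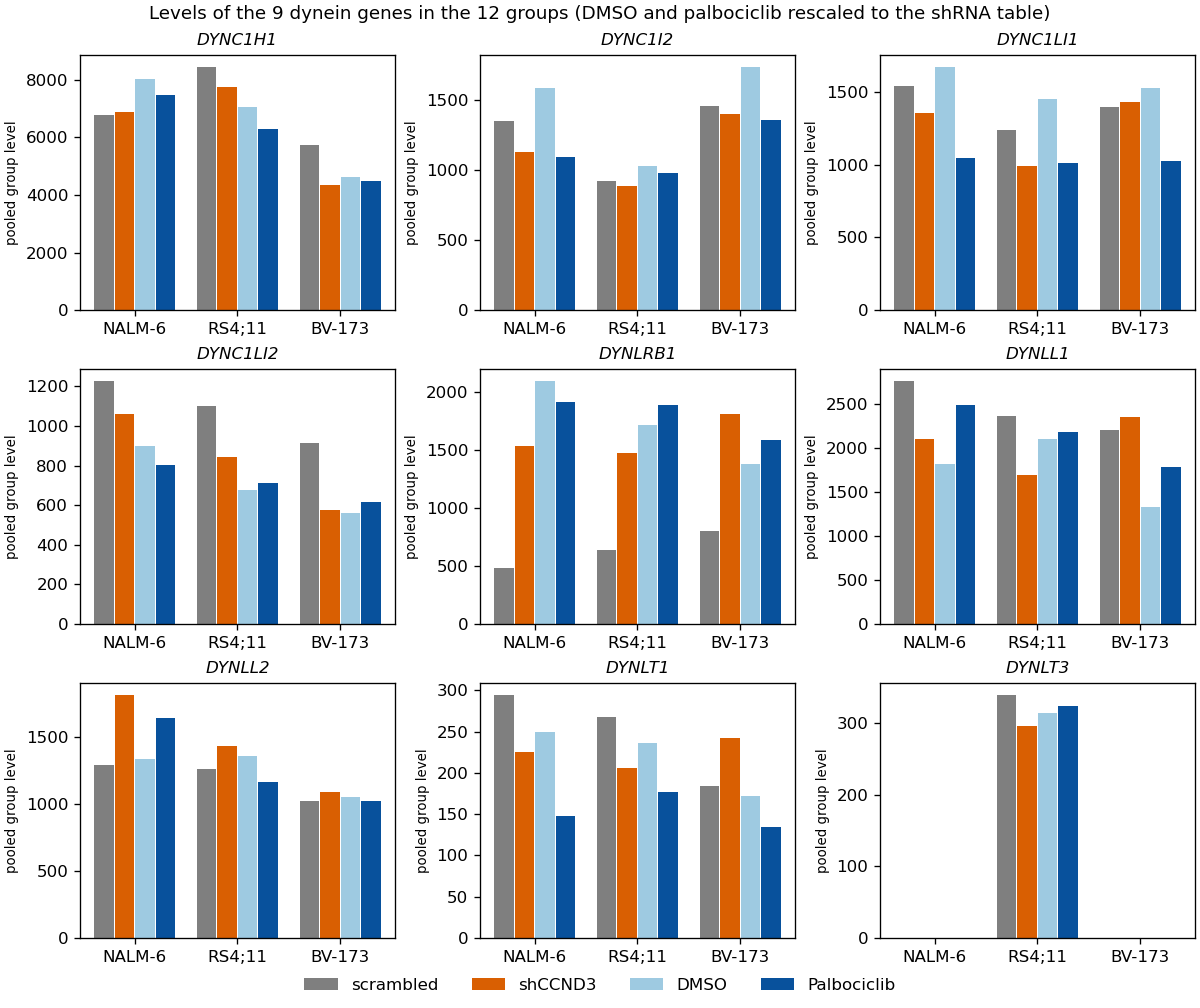
Pooled level of each dynein gene (linear axis from 0, units of the tables) in the 4 groups of each line, 1 bar per group, with the DMSO and palbociclib levels rescaled to the shRNA table of the line. The scrambled bars of DYNLRB1 (480, 634 and 800) are the lowest of the 4 bars in each line, and DYNLT3 shows bars in RS4;11 only.

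The scrambled and DMSO groups are both controls, yet they differed for *DYNLRB1*. Each line's tables were scaled separately, so the DMSO level was first multiplied by a factor that set the median log2 ratio of the controls to 0 over all genes listed in both tables (14830 for NALM-6, 15208 for RS4;11, 14070 for BV-173). The factors were 1.07, 0.973 and 0.991. On this common scale DMSO stood at 2092, 1710 and 1378 in the same order. The scrambled level was 23% of the rescaled DMSO level for NALM-6, 37.1% for RS4;11 and 58.1% for BV-173, a mean log2 ratio of −1.45 ± 0.67 (SD, n = 3 lines).

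Few well-expressed genes stood as low in scrambled against DMSO cells. With both control levels at 100 or more, 0 of 9545 genes had a lower ratio than *DYNLRB1* in NALM-6, and 1 of 9951 in RS4;11, which was *HSD17B10*. In BV-173 the number was 134 of 9350. The limit also removes genes that stood under 100 in scrambled cells. Without it, 53 of 14830 genes had a lower ratio in NALM-6, 163 of 15208 in RS4;11 and 990 of 14070 in BV-173. The scrambled level also entered the choice of *DYNLRB1*. The shCCND3 level of *DYNLRB1* was 73.2%, 86.3% and 131% of the rescaled DMSO level in the lines in that order, so it lay below DMSO in 2 lines and above it in 1. Its mean log2 ratio to DMSO was −0.09 ± 0.43 (SD, n = 3 lines). The scrambled group enters both the knockdown ratio and this comparison of controls, so the pair of values is not independent. By the labels, scrambled cells differed from DMSO cells in the vector, the sorting, the solvent and the day of collection, and the parts of these cannot be told apart.

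Over the 9 genes, members at levels under 1 (*DYNLT3* in 2 lines) were left out of the counts of differences. After knockdown in NALM-6, 1 of 8 was at least 1.5-fold higher (*DYNLRB1*) and 0 were as much lower, where 7.82% of all genes were higher and 8.47% lower. In RS4;11 it was again *DYNLRB1* alone of 9 that was higher, with 0 lower, against 9.73% and 9.72% of all genes. BV-173 had *DYNLRB1* higher and *DYNC1LI2* lower among 8, against 3.32% and 4.78% of all genes. The *DYNLRB1* counts follow from how it was chosen, and the remaining counts were 0 or 1 per line. The members' median log2 ratio was −0.20, −0.20 and 0.06 for the 3 lines, beside 0.01, 0.01 and −0.01 over all genes.

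After palbociclib in NALM-6, 0 of 8 members were at least 1.5-fold higher and 2 were lower, *DYNC1LI1* and *DYNLT1*, where 21.4% of all genes were higher and 14.9% lower. None of the 9 in RS4;11 passed 1.5-fold either way, against 16.7% and 15% of all genes. None of the 8 in BV-173 did, against 13.6% and 11.9%. Members closest to the 1.5-fold line, which is 0.585 on the log2 scale, were *DYNC1LI2* after knockdown in BV-173 on its outer side (−0.66) and *DYNC1LI1* after palbociclib in BV-173 on its inner side (−0.57). Over the members counted, the median log2 ratio was −0.15, −0.08 and −0.05 for the 3 lines, beside 0.06, 0.01 and 0.04 over all genes.

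**Figure D2:**
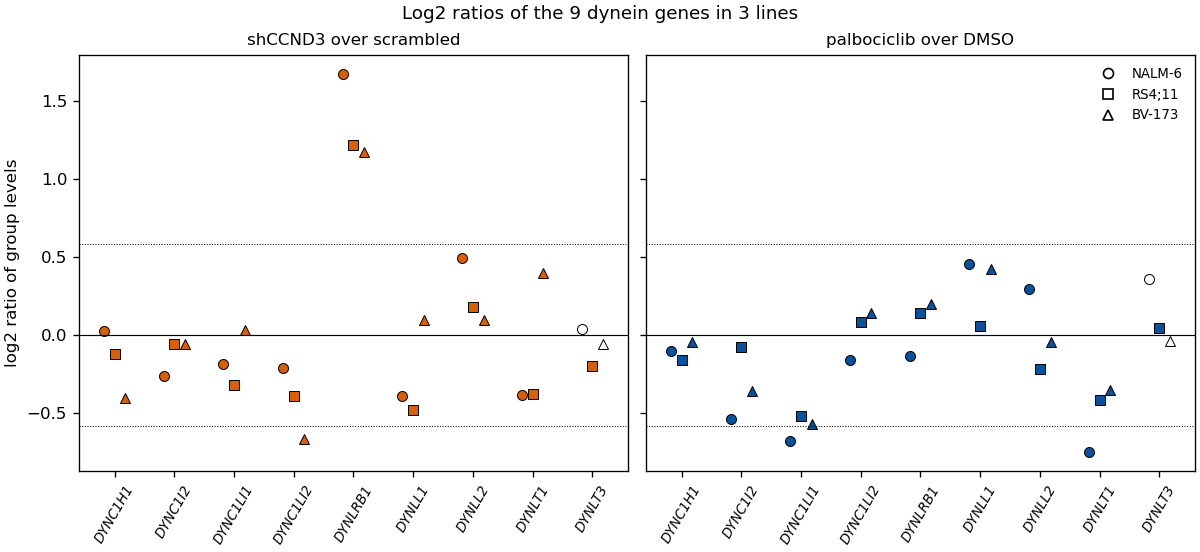
Log2 ratio of treated over control level for each dynein gene, after knockdown (left) and palbociclib (right), 1 symbol per line, with dotted lines at 1.5-fold. DYNLRB1 stands alone above the upper dotted line after knockdown (1.18 to 1.67), and open symbols mark DYNLT3 at levels under 1.

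The heavy chain *DYNC1H1* (chr14:101964573-102056443) carries the motor domain. Its level was 6764 with scrambled shRNA and 6886 with shCCND3 in NALM-6, 8434 and 7739 in RS4;11, and 5729 and 4332 in BV-173. The log2 ratios were 0.03, −0.12 and −0.40, a mean of −0.17 ± 0.22 (SD, n = 3 lines), smaller than the spread between lines. With palbociclib they were −0.10, −0.16 and −0.05, negative in each line.

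The intermediate chain *DYNC1I2* (chr2:171687469-171750158) was lower than its control in all 6 comparisons. Its log2 ratios were −0.26, −0.06 and −0.06 after knockdown and −0.54, −0.08 and −0.36 after palbociclib. The mean of the latter was −0.32 ± 0.23 (SD, n = 3 lines). The widest difference was in NALM-6, where DMSO gave 1492 and palbociclib 1026.

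Of the light intermediate chains, which bind cargo adaptors, *DYNC1LI1* (chr3:32525974-32570858) had lower levels with palbociclib in every line. It stood at 1566 with DMSO and 978 with palbociclib in NALM-6, at 1492 and 1040 in RS4;11, and at 1539 and 1035 in BV-173. The palbociclib level was the lower of the pair in each line, and 820 of 13788 genes were at least 1.5-fold lower in all 3 lines, a fold *DYNC1LI1* reached in NALM-6 only. The ratios were −0.68, −0.52 and −0.57, a mean of −0.59 ± 0.08 (SD, n = 3 lines), at 62.4% to 69.7% of control. After knockdown its ratios were smaller, at −0.19, −0.32 and 0.03.

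*DYNC1LI2* (chr16:66720893-66751609), the other light intermediate chain, showed the reverse order of treatments. It stood at 1226 with scrambled shRNA and 1060 with shCCND3 in NALM-6, at 1102 and 841 in RS4;11, and at 914 and 577 in BV-173. Log2 ratios were −0.21, −0.39 and −0.66, a mean of −0.42 ± 0.23 (SD, n = 3 lines), against −0.16, 0.08 and 0.14 with palbociclib. Knockdown minus palbociclib was 0.43 ± 0.21 for *DYNC1LI1* and −0.44 ± 0.38 for *DYNC1LI2* (SD, n = 3 lines), each with 1 sign in all 3 lines. That is not particular to the pair, since every other member except *DYNC1H1* also had 1 sign. On the common scale of the controls, the shCCND3 level of *DYNC1LI2* lay above DMSO in each line, at log2 ratios of 0.24, 0.32 and 0.04.

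The LC8 light chains *DYNLL1* (chr12:120469842-120498493) and *DYNLL2* (chr17:58083419-58095542) also differed between treatments. *DYNLL1* was at 2756 with scrambled shRNA and 2097 with shCCND3 in NALM-6, at 2359 and 1694 in RS4;11, and at 2198 and 2353 in BV-173. Its knockdown ratios were −0.39, −0.48 and 0.10 and its palbociclib ratios 0.45, 0.06 and 0.43, so that knockdown lay below palbociclib in each line, by 0.57 ± 0.26 on the log2 scale (SD, n = 3 lines). That order depends on the control. On the common scale, log2 ratios of shCCND3 over DMSO for *DYNLL1* were 0.21, −0.31 and 0.83. These lay below the palbociclib ratio in NALM-6 and RS4;11 and above it in BV-173. *DYNLL2* had positive knockdown ratios in each line, at 0.49, 0.18 and 0.10, and palbociclib ratios of 0.30, −0.22 and −0.05. Its mean after knockdown, 0.26 ± 0.21 (SD, n = 3 lines), was of about the size of the spread between lines.

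The Tctex light chain *DYNLT1* (chr6:158636474-158644743) was lower with palbociclib than with DMSO in each line, at 234 and 139 in NALM-6, 243 and 182 in RS4;11, and 173.4 and 135.7 in BV-173. The log2 ratios were −0.75, −0.42 and −0.35, a mean of −0.51 ± 0.21 (SD, n = 3 lines). After knockdown they were −0.38, −0.38 and 0.40, with the sign in BV-173 opposite to that in the other lines. *DYNLT3*, its relative, was listed between 295 and 339 in the 4 groups of RS4;11 and between 0.164 and 0.413 in the 8 groups of NALM-6 and BV-173. No table held a level of 0 and the lowest level anywhere was 0.145, so no ratio is read for *DYNLT3* outside RS4;11, where its log2 ratios were −0.20 after knockdown and 0.04 after palbociclib.

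Other members also differed between the control groups. On the common scale, in NALM-6, *DYNLL1* was at least 1.5-fold higher with scrambled shRNA than with DMSO and *DYNLRB1* lower, 1 and 1 of 8 members, where 15.7% of all genes were higher and 9.02% lower. In RS4;11 *DYNC1LI2* was higher and *DYNLRB1* lower, 1 and 1 of 9, against 13.2% and 5.52%. In BV-173 *DYNC1LI2* and *DYNLL1* were higher and *DYNLRB1* lower, 2 and 1 of 8, against 10.5% and 10.3%. The *DYNC1LI2* ratios of scrambled over DMSO were 0.45, 0.71 and 0.71, a mean of 0.62 ± 0.15 (SD, n = 3 lines), and those of *DYNLL1* were 0.60, 0.17 and 0.73. With shCCND3 over DMSO, *DYNC1LI2* had a mean of 0.20 ± 0.14 (SD, n = 3 lines). For *DYNC1H1*, *DYNC1I2*, *DYNC1LI1*, *DYNLL2* and *DYNLT1* the scrambled level lay between 84.1% and 124% of DMSO.

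**Figure D3:**
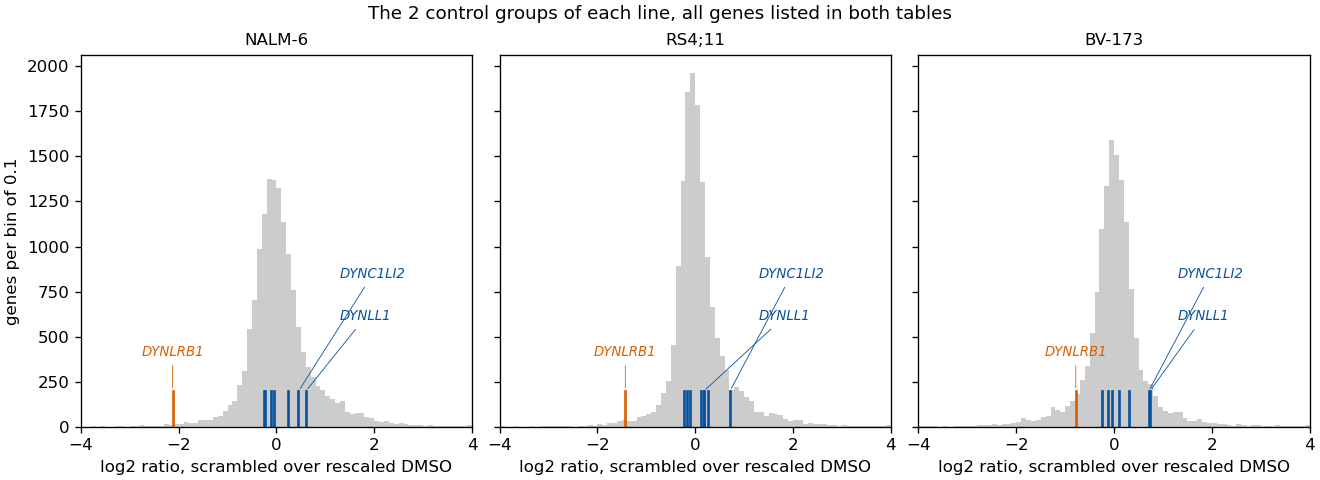
Number of genes (linear axis) per bin of 0.1 in the log2 ratio of scrambled over rescaled DMSO, for the 3 lines, with vertical ticks at the members (orange for DYNLRB1, blue for the others with levels of 1 or more). The DYNLRB1 ticks at −2.12, −1.43 and −0.78 lie to the left of all other members drawn, while DYNC1LI2 (0.45 to 0.71) and DYNLL1 (0.17 to 0.73) lie to the right of 0.

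Levels of different genes were set side by side only per 1000 bases of the transcript length given in the tables. *DYNLL1* was in place 1 or 2 of the 9 members on this per-length scale in all 12 groups, between 1819 and 3750. *DYNLRB1*, with a length of 721 to 725 bases, ranged more widely, from 663 to 2713, and stood anywhere from place 1 to 3. Its per-length level was 1.41 to 8.29 times that of the heavy chain. *DYNLL2* held place 2 or 3 (669 to 1191). *DYNC1LI1* stood in place 4 or 5 (389 to 622). *DYNC1H1* (302 to 587), *DYNC1I2* (205 to 405), *DYNLT1* (172 to 374) and *DYNC1LI2* (130 to 281) came after or among these, with ranges that overlapped. *DYNLT3* was last in every group, at up to 152 per 1000 bases in RS4;11. The order is of messenger levels per length and not of protein.

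Dynactin is the activator that dynein needs for long runs. Of its 12 genes, 0 were at least 1.5-fold higher in any comparison, where 3.32% to 21.4% of all genes were. After knockdown 1 was as much lower in NALM-6 and 1 in RS4;11, both times *CAPZA2*, an actin capping subunit (−0.81, −0.63 and −0.20 over the lines). Of all genes, 8.47% and 9.72% were as much lower in these 2 comparisons. With palbociclib 2 were lower in NALM-6, *DCTN3* at −0.65 and *DCTN2* at −0.60, the latter named after its values were seen. There 14.9% of all genes were lower. The dynactin counts lay near these shares and are not read as a result about dynactin. No dynactin gene passed 1.5-fold in all 3 lines, where 81 of 13877 genes were higher and 243 lower in all 3 after knockdown, and 624 and 820 of 13788 after palbociclib. The median of the dynactin genes' mean log2 ratios was 0.07 after knockdown and 0.03 after palbociclib, beside 0.00 and 0.04 over all genes.

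The list kept as dynein regulators held 12 genes: *PAFAH1B1*, *NDE1*, *NDEL1*, *NUDC*, *NUDCD3*, *CLIP1*, *MAPRE1*, *SNAP29*, *RAB6A*, *RAB7A*, *RAB11A* and *RILP*. It is a broad list, and not every gene in it, such as *SNAP29*, is an established regulator of dynein. Among the 12, 0 passed 1.5-fold after knockdown in any line, where 3.32% to 9.73% of all genes were higher and 4.78% to 9.72% lower. With palbociclib *RILP* was higher (0.63) and *NDE1* and *NUDC* (−0.67) lower in NALM-6, 0 passed in RS4;11, and *NDE1* was lower in BV-173. Of all genes 13.6% to 21.4% were higher and 11.9% to 15% lower in these comparisons. The *NUDC* ratio is given after its values were seen. *NDE1*, which helps place dynein at the nuclear envelope and kinetochores, had the widest mean palbociclib ratio of the regulators named by rule (−1.25, −0.41 and −0.91, mean −0.85 ± 0.42, SD, n = 3 lines). The median of the regulators' means was −0.08 after knockdown and −0.10 after palbociclib.

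The 18 activating adaptors, which join dynein to dynactin and cargo, gave larger counts. After knockdown 4, 4 and 0 were at least 1.5-fold higher and 1, 3 and 1 lower, again in the order NALM-6, RS4;11, BV-173, against 7.82%, 9.73% and 3.32% of all genes higher and 8.47%, 9.72% and 4.78% lower. With palbociclib 9, 4 and 3 were higher and 4, 1 and 3 lower, against 21.4%, 16.7% and 13.6% higher and 14.9%, 15% and 11.9% lower. The median of their mean log2 ratios was 0.09 after knockdown and 0.20 after palbociclib. *SPDL1* (Spindly), the adaptor that recruits dynein to kinetochores in mitosis, was the only adaptor lower by this fold in every line with both treatments. Its level with scrambled shRNA and shCCND3 was 1154 and 507 in NALM-6, 950 and 384 in RS4;11, and 1068 and 575 in BV-173. The mean log2 ratio was −1.13 ± 0.21 after knockdown and −1.51 ± 0.56 after palbociclib (SD, n = 3 lines). *MAPK8IP3* (JIP3), an adaptor for organelle transport, was higher in every line with palbociclib, with a mean of 0.94 ± 0.11 (SD, n = 3 lines). After knockdown its ratios were 1.01, 0.67 and −0.01.

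A separate motor, cytoplasmic dynein 2, carries cargo inside cilia, and its subunits were part of a list of 10 further cytoplasmic dynein genes, beside other intermediate and light chains. Of the 10, 6 were listed in all 3 lines. The median of their mean log2 ratios was −0.10 after knockdown and 0.10 after palbociclib. These medians include *TCTE3* and *TCTEX1D4*, which stood at levels under 10 in every group, so no direction is read from them. *DYNC2H1*, the heavy chain of that motor, was listed in RS4;11 and BV-173 only. In RS4;11 its log2 ratios were 0.88 after knockdown and 1.02 with palbociclib, and in BV-173 its control levels were under 10. After knockdown 0 of the 6 passed 1.5-fold in every line, where 81 of 13877 genes were higher and 243 lower in all 3. With palbociclib 2 were lower in every line, *WDR34* (now DYNC2I2) and *TCTEX1D2* (now DYNLT2B), the latter named after its values were seen. Over all genes, 820 of 13788 were lower and 624 higher in all 3 lines with palbociclib. *WDR34* was at 1026 and 532 in NALM-6, 1251 and 637 in RS4;11, and 348 and 177 in BV-173. Its mean log2 ratio was −0.97 ± 0.02 (SD, n = 3 lines). *TCTEX1D2* had lower levels, 86.5 and 29.5 in NALM-6, 113 and 44.4 in RS4;11, and 79.9 and 42.2 in BV-173. *DYNC2LI1*, the light intermediate chain of that motor, had positive ratios in each line with both treatments (mean 0.34 ± 0.19 and 0.50 ± 0.10, SD, n = 3 lines).

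Proteins that bind the light chains outside the motor were followed in a list of 12. After knockdown 0, 3 and 0 were at least 1.5-fold higher and 2, 0 and 0 lower over the lines, and with palbociclib 5, 2 and 0 were higher and 1, 0 and 1 lower. The shares of all genes are those given for the adaptors. Here the medians of the means were 0.04 and 0.22. *BMF*, a BH3-only protein that LC8 chains can hold, had palbociclib ratios of 2.74, 2.05 and 0.29, from DMSO levels of 51.3, 369 and 1119. Its knockdown ratios were −0.05, 1.33 and 0.23. *BCL2L11* (BIM), a second BH3-only protein that binds LC8, had knockdown ratios of −0.07, −0.07 and −0.10 and palbociclib ratios of −0.03, −0.55 and −0.20. *PAK1*, a kinase that binds DYNLL1, had a mean palbociclib ratio of −0.56 ± 0.09 (SD, n = 3 lines). Of 18 axonemal dynein genes, which drive cilia and flagella, 10 to 16 were listed and 3 had a control level of 100 or more in each table. Of those listed, 1, 1 and 1 were higher and 0, 1 and 0 lower after knockdown, and 7, 3 and 3 higher and 1, 2 and 1 lower with palbociclib, most of the latter at control levels under 10. The all-gene shares beside them are again 7.82%, 9.73% and 3.32% higher after knockdown and 21.4%, 16.7% and 13.6% with palbociclib. The shares lower are 8.47%, 9.72% and 4.78% after knockdown and 14.9%, 15% and 11.9% with palbociclib. The medians of the means were −0.04 and 0.05. The well-expressed ones included *DNAH1* with a mean palbociclib ratio of 0.71 ± 0.24 (SD, n = 3 lines).

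**Figure D4:**
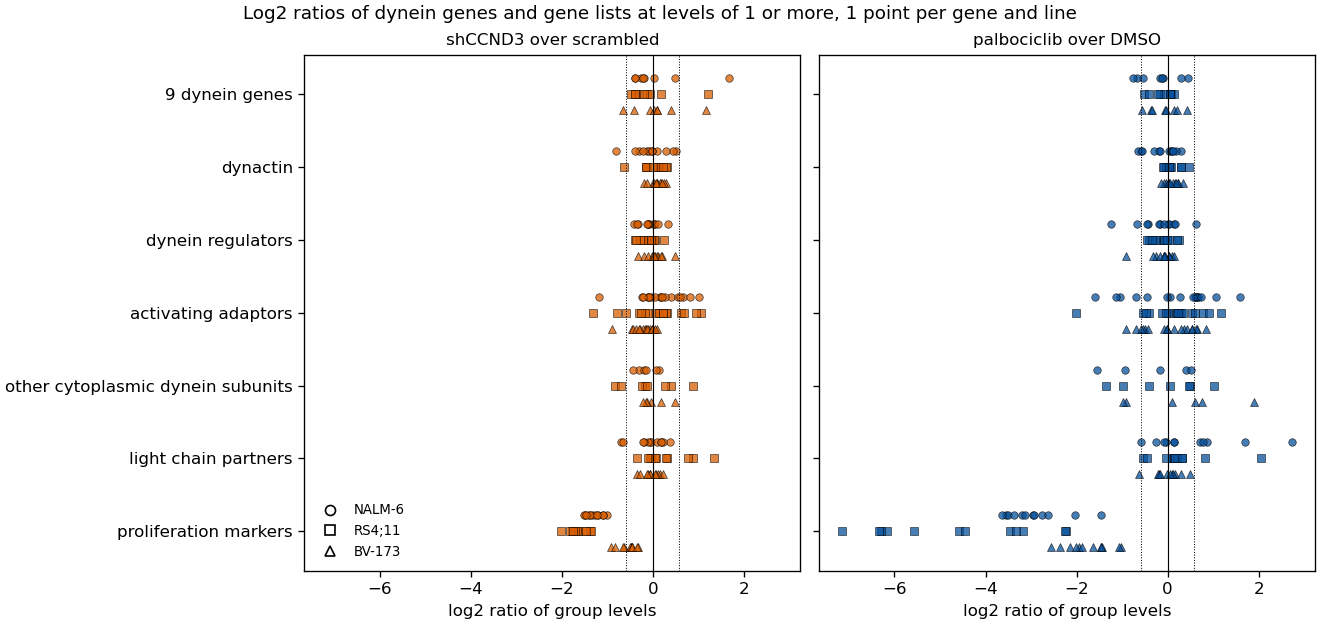
Log2 ratio of treated over control level, 1 point per gene and line at levels of 1 or more, for the dynein genes and 6 gene lists after knockdown (left) and palbociclib (right), with dotted lines at 1.5-fold. Dynactin and the regulators lie mostly between the dotted lines, SPDL1 is the lowest adaptor point in RS4;11 at −1.31 and −2.02, and the proliferation markers lie to the left in both panels.

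The genes most like *DYNLRB1* over the 6 log2 ratios, among 8278 others with all 12 levels at 100 or more, were *HSD17B10* with a root mean square difference of 0.43, *TMC6* with 0.43, *SLC17A5* with 0.45, *TMED4* with 0.47 and *PTP4A3* with 0.49. *HSD17B10*, a mitochondrial dehydrogenase, had knockdown ratios of 1.10, 1.46 and 0.93 and palbociclib ratios of 0.22, 0.44 and 0.87. Its scrambled level was also low against rescaled DMSO, with log2 ratios of −1.39, −1.55 and −0.26. In the same comparison of controls *TMC6* had −0.10, 0.09 and −0.33, *SLC17A5* −1.08, −0.30 and −0.41, *TMED4* −0.74, −0.59 and −0.21, and *PTP4A3* −0.96, 0.16 and 0.30. The scrambled and DMSO levels are the denominators of the ratios on which these genes were picked. Their control values are therefore not independent of that choice. Of the dynein genes *DYNLL2* was nearest in pattern to *DYNLRB1*, at a root mean square difference of 0.82, and 9.53% of the genes compared were nearer.

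The 3 listed genes on each side of *DYNLRB1* on chromosome 20 had other values. Mean knockdown ratios were −0.09 for *EIF2S2*, 0.37 for *AHCY* and 0.06 for *ITCH* before it, and −0.25 for *PIGU*, 0.86 for *TP53INP2* and −0.57 for *NCOA6* after it, against 1.36 for *DYNLRB1*. *TP53INP2* differed most in NALM-6, with ratios of 2.18, 0.17 and 0.22, and that gene was also higher with palbociclib, with log2 ratios of 1.81, 0.55 and 1.11.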

How the data were processed

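Cells were sequenced by the authors from oligo-dT libraries. Reads were filtered with SOAPnuke and, per the labels, aligned with Bowtie2 to hg38 and quantified with RSEM, with DESeq2 for comparison; versions are not given in the sources used here. The deposited tables hold 1 signal value per group, a pooled expression level scaled within a pair of groups, in place of sample counts, so depth per sample is unknown. The tables also hold the authors' fold changes, p-values, adjusted p-values and up or down calls, none of which was used.

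Log2 ratios of the deposited levels were computed without a pseudocount (Python 3.11.15, pandas 2.3.3, numpy 2.4.6) and averaged over 3 lines. A difference counted as at least 1.5-fold. Named genes were the 9 members, CCND3, up to 4 genes per list and treatment (levels of 50 or more, 1 sign in 3 lines, widest mean), the 5 nearest in pattern and 3 on each side on the chromosome. The members and lists were chosen with earlier results of these data known. Scaling and counting were tested on simulated data in which few genes changed, equally up and down. The more numerous differences between the real controls were not simulated. List symbols were matched through NCBI gene IDs, and coordinates are those of RefSeq on GRCh38.p14.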

Additional observations from a re-analysis of the deposited data

How the results depend on the processing

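The knockdown ratio of *DYNLRB1* and its ratio between the controls moved by less than the SD over the lines under the other scalings tried. So did the knockdown ratio with 10 added to both levels. Leaving out 1 of 3 lines cannot move a mean by as much as that SD, so those values are a description. The gene was also chosen as at least 1.5-fold higher in each line, so its knockdown mean had to stay past that fold. The mean log2 ratio after knockdown, 1.36, was 1.35 with the median of each comparison set to 0, 1.34 with 10 added to both levels, and 1.20 to 1.45 with 1 line left out. The small mean after palbociclib, 0.07, was 0.03 with the median set to 0 and 0.01 to 0.17 with 1 line left out, and so has no settled size. Scrambled over DMSO gave −1.43 on the levels as deposited and −1.41 when the scale came from genes at 100 or more. The count of members past the threshold in the palbociclib comparisons, 2 in all, was 4 with the median set to 0 and 0 at a 2-fold threshold. At a 2-fold threshold the share of all genes over the 3 lines was 4.53% after knockdown (14.8% at 1.5-fold) and 14.2% after palbociclib (31.3%). Counting *DYNLT3* at levels under 1, an alternative chosen after seeing the data, gave 5 in place of 4 differences of the other members between the controls.

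No paired analysis was possible because the tables hold 1 pooled level per group, and no single replicate was left out.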
